A study of Mus musculus with 33 samples.

Results

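Described here are 5 mouse genes, Ovgp1, Dcpp1, Dcpp2, Dcpp3 and A2ml1, of 54347 gene identifiers in a table of ovary RNA-seq counts. They were chosen by their symbols, with their levels in these libraries known from earlier results, so their levels and group differences are given as a description and carry no test. The study sequenced polyadenylated RNA of mouse ovary in 33 libraries from 3 experiments and asked which transcripts depend on follicle-stimulating hormone (FSH), whose hormone-specific subunit is encoded by Fshb, and which follow the estrous cycle. Experiment 1 held 3 libraries labelled Fshb(-/-), 3 labelled Fshb(+/-) and 3 labelled WT. Experiment 2 held 4 libraries of Fshb(-/-) mice with the HFSHB transgene, for which the labels give no promoter, and 4 libraries labelled Fshb(-/-). Experiment 3 held 4 libraries at stage DE, 4 at PE and 4 at E, which carry the genotype label WT. Its other 4 libraries have the stage label KO (anestrus), although WT is given as their genotype. DE, PE and E usually stand for diestrus, proestrus and estrus, and the labels of experiments 1 and 2 give no stage. Ages are not stated, nor is it said that each library is a different animal, and p-values given here refer to the spread between libraries, which may be technical.

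The mouse oviduct is a coiled duct beside the ovary, lined by ciliated cells and by secretory cells. Ovgp1 encodes oviductin, a glycoprotein of the chitinase-like family that oviduct secretory cells release into the lumen, where it coats the zona pellucida of eggs and early embryos, and its synthesis is known to depend on estrogen in several mammals. The Dcpp genes encode small secreted proteins first described in mouse salivary glands and later in the oviduct. A2ml1 encodes a large secreted protease inhibitor of the alpha-2-macroglobulin family and has the synonym Ovos, for ovostatin, in RefSeq.

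Total counts ran from 10.1 M to 23.7 M per library. Fshb itself did not run with the genotype labels: it had 68 to 82 counts in Fshb(-/-), 43 to 106 in Fshb(+/-) and 0 to 1 in WT libraries of experiment 1, and 0 to 198 counts in the stage libraries labelled WT, so genotypes are named here as labelled. Genes of ovarian follicle and steroid cells (14 genes, among them Foxl2, Fshr, Star and Gdf9) were detected in every group, with summed levels between 2343 and 15851 CPM (counts scaled to one fixed library total). Markers of oviduct-type epithelium were also present, at levels that differed widely between libraries of one group. DE replicate 3 and E replicate 3 stood apart from the other libraries of their stages, as did replicate 2 of the HFSHB group and replicate 3 of Fshb(+/-), and results that rest on them are given with and without them. These libraries were picked by their levels of oviduct-type genes. Fits without them are therefore a description and no test of such genes. Because these are bulk samples, fewer cells of a type and less RNA per cell cannot be told apart.

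Ovgp1 (ENSMUSG00000074340.9) has 11 exons and lies on the plus strand at chr3:105973711-105987423 (GRCm38, GENCODE M21), where the predicted gene Gm42890 overlaps it on the same strand. Its promoter is printed because Ovgp1 carried the largest signal of the 5 genes and is known as an estrogen-dependent gene. The 300 bases run 5′ to 3′ on the plus strand from 250 bases before to 50 bases after the RefSeq start (chr3:105973552-105973851, GRCm38.p6), with matches to the motifs searched in capitals.
Ovgp1 promoter: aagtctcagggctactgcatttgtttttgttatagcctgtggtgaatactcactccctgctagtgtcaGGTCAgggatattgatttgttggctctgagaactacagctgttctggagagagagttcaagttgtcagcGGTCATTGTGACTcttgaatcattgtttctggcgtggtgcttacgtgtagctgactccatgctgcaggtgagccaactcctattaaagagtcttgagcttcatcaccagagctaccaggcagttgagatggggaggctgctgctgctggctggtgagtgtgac
The motifs searched on both strands were the estrogen response element (GGTCA, then any 3 bases, then TGACC), its single arm GGTCA and the TATA box TATAAA. The longer capital run, GGTCATTGTGACT, starts 113 bases before the RefSeq start and matches the element with 1 mismatch, and it contains one of the 2 single arms. Such a match, or a better one, occurred in 0.877% of 32851 RefSeq promoters of this length, an exact one in 0.0700% and the single arm in 40.5%. These letters are a description of the sequence and not a measured binding site.

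Across the 33 libraries Ovgp1 ranged from 1.29 to 7042 CPM, and 8 libraries of the stage experiment, from 2968 CPM upwards, stood above the rest. In DE it stood at 7042, 4545, 3.04 and 3105 CPM in replicates 1 to 4. In PE it stood at 2968, 5319, 3815 and 4635 CPM, and in E at 2.00, 2.89, 4630 and 1.29 CPM. In KO (anestrus) it stood at 1.35, 35.7, 5.74 and 35.1 CPM. All 4 PE libraries were thus high, whereas 1 DE library was low and 1 E library was high, so that DE and E overlapped and so did each of them with KO (anestrus). In the 8 high libraries Ovgp1 ranked between the 3rd and the 10th most abundant gene, and in DE replicate 1 it took 0.704% of all counts (95% exact binomial interval 0.699% to 0.709%, counting error only).

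Experiments 1 and 2 held low libraries and some of intermediate level. In experiment 1 Ovgp1 stood at 1.55, 2.21 and 5.65 CPM in Fshb(-/-) and at 3.87, 40.4 and 909 CPM in Fshb(+/-), against 2.89, 5.61 and 15.1 CPM in WT. Only replicate 3 of Fshb(+/-) was far above the rest, and the ranges of all 3 genotypes overlapped. In experiment 2 it stood at 2.24, 422, 3.57 and 3.93 CPM in Fshb(-/-) HFSHB, against 2.39, 2.76, 198 and 107 CPM in Fshb(-/-). Here 1 of 4 transgenic libraries and 2 of 4 Fshb(-/-) libraries were raised, again with overlap. Ovgp1 was at 0 in no library, and its widest gap on the log scale lay between 909 CPM in Fshb(+/-) replicate 3 and 2968 CPM in PE replicate 1, a 3.26-fold step between 8 libraries above and 25 below. In the 21 libraries with fewer than 1000 Ovgp1 counts the counts ran from 14 to 617. Gm42890, the overlapping gene, ran from 0 to 15.1 CPM, and reads from the 2 genes may be divided between them.

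**Figure D1:**
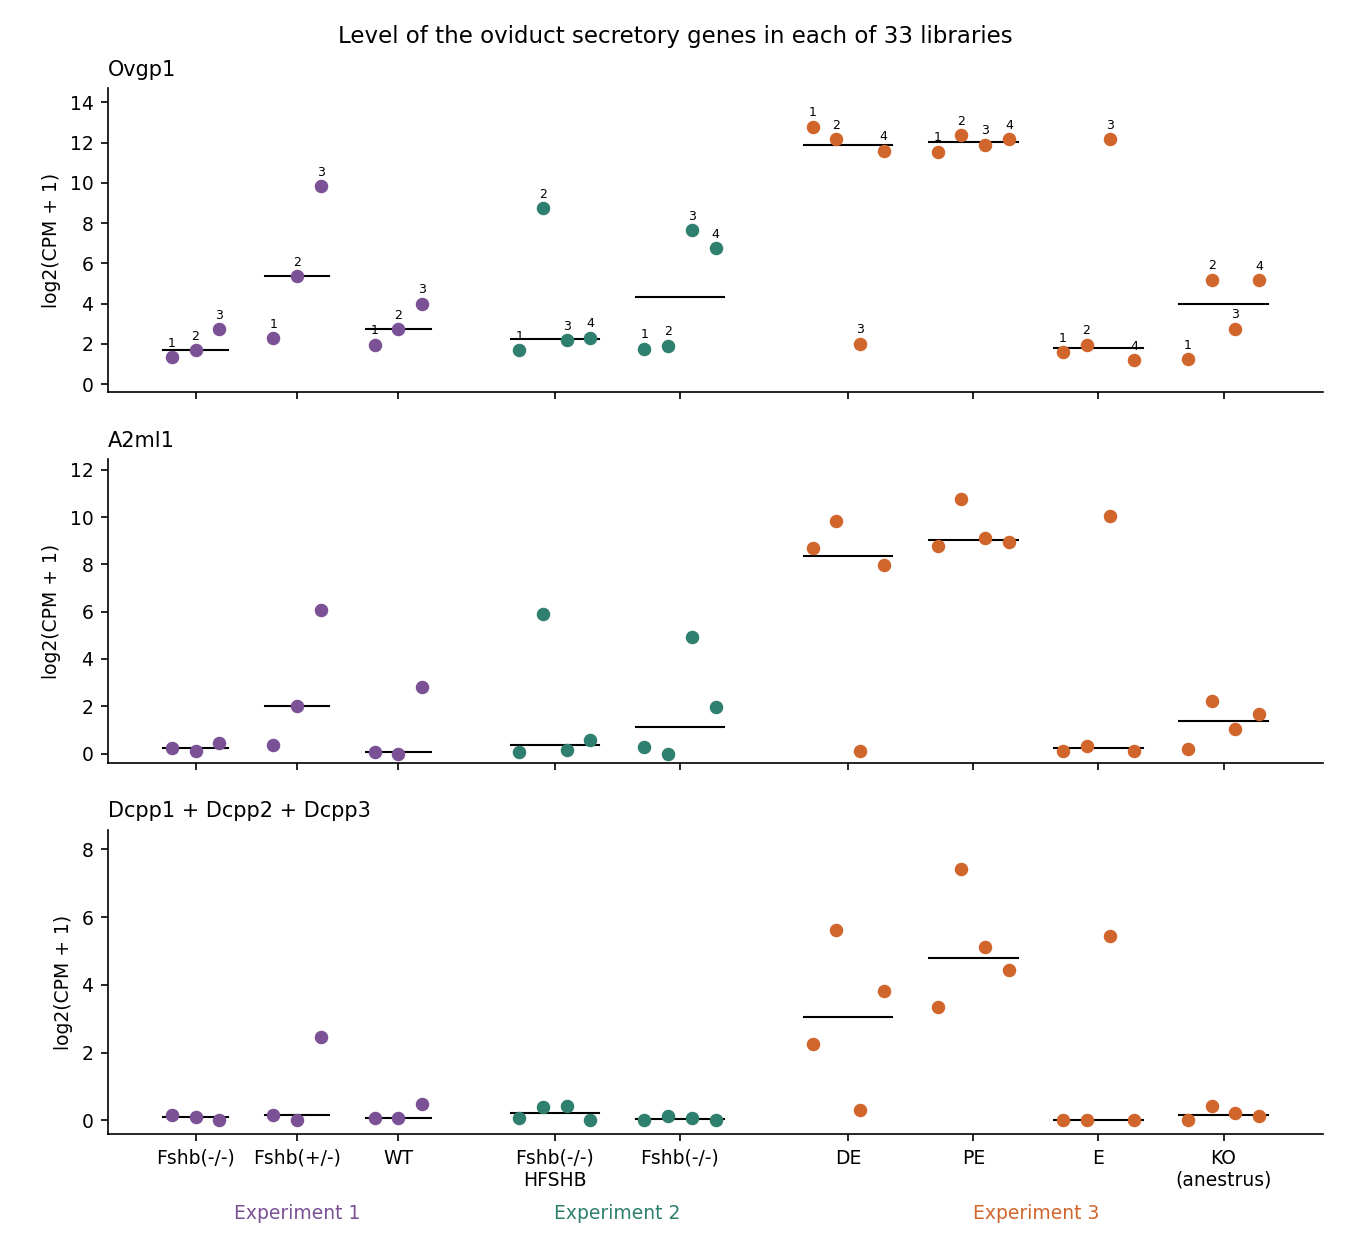
Level of Ovgp1, of A2ml1 and of the summed Dcpp copies as log2(CPM + 1) on the vertical axes, with the 33 libraries by group along the horizontal axis; each point is 1 library, the small digits in the upper panel are replicate numbers and the black lines are group medians. The 4 PE libraries lie high in all 3 panels, while DE replicate 3 lies with the low libraries and E replicate 3 with the high ones.

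Ordered by the group median, Ovgp1 stood at 4225 CPM in PE, 3825 in DE, 54.7 in Fshb(-/-) of experiment 2, 40.4 in Fshb(+/-), 20.4 in KO (anestrus), 5.61 in WT, 3.75 in Fshb(-/-) HFSHB, 2.45 in E and 2.21 in Fshb(-/-) of experiment 1. The ranges of every 2 neighbours in this order overlapped. The experiments were prepared and sequenced differently, so steps of the order that join groups of different experiments cannot be told apart from that difference.

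A2ml1 (ENSMUSG00000047228.9) has 36 exons on the minus strand at chr6:128539821-128581608 (GRCm38). Its promoter (chr6:128581557-128581856, GRCm38.p6, minus strand, RefSeq) is shown because A2ml1 moved with Ovgp1 from library to library, and the single match to the motifs above is in capitals.
A2ml1 promoter: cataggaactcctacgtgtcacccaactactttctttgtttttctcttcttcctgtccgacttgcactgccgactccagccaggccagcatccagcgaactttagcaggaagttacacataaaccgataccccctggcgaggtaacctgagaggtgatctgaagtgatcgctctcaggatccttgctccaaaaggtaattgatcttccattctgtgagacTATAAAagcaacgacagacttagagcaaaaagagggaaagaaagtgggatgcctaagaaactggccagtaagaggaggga
This match is a TATAAA box 30 bases before the RefSeq start, a string that 13.6% of RefSeq promoters hold within the same window. Neither the estrogen response element with up to 1 mismatch nor its single arm was found in these 300 bases.

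A2ml1 was low in the libraries with little Ovgp1 and reached 253 to 1755 CPM in the 8 libraries with most. In DE it stood at 409, 908, 0.0760 and 253 CPM, and in PE at 438, 1755, 554 and 492 CPM. In E it stood at 0.0885, 0.251, 1053 and 0.0919 CPM, and in KO (anestrus) at 0.150, 3.71, 1.06 and 2.20 CPM. The same 8 libraries were high as for Ovgp1, and PE did not overlap KO (anestrus). How many of all genes separate these groups in the same way was not counted. In Fshb(-/-) of experiment 1 it stood at 0.182, 0.0736 and 0.375 CPM and in Fshb(+/-) at 0.306, 3.01 and 67.02 CPM, against 0.0600, 0 and 5.97 CPM in WT. In Fshb(-/-) HFSHB it stood at 0.0471, 58.97, 0.0964 and 0.482 CPM, against 0.204, 0, 29.1 and 2.90 CPM in Fshb(-/-) of experiment 2. A2ml1 thus had 0 counts in 2 libraries, which allows up to 3 counts in each, and its raised libraries in these experiments were those in which Ovgp1 was raised.

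The 3 Dcpp genes lie in tandem on the plus strand of chr17 (GRCm38), Dcpp1 at chr17:23880876-23882853, Dcpp2 annotated at chr17:23880880-23900788, a span that includes Dcpp1, and Dcpp3 at chr17:23917458-23919441. Their coding sequences, of 513, 513 and 510 bases, are 93.8% identical between Dcpp1 and Dcpp2, 93.2% between Dcpp1 and Dcpp3 and 95.3% between Dcpp2 and Dcpp3. The stretch of 90 coding bases with most differences is printed to show what separates the copies; it starts at coding base 274 of Dcpp1 and Dcpp2 and at base 271 of Dcpp3, and capitals mark the 20 positions at which the copies are not all alike, of 46 such positions in the whole coding sequence.
Dcpp1: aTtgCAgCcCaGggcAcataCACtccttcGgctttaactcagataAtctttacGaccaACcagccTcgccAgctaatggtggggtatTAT
Dcpp2: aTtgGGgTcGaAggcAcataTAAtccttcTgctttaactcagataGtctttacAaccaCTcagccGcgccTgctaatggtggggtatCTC
Dcpp3: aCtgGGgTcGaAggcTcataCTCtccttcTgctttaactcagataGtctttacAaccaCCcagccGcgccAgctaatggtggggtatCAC
Of the 31-base words in each transcript, 43.6% in Dcpp1, 44.0% in Dcpp2 and 43.9% in Dcpp3 occur in neither of the other two, so reads could be assigned to a copy over part of each transcript and were divided by the quantifier elsewhere. Transcripts annotated on the opposite strand overlap Dcpp2 and Dcpp3, and whether counting used strand is not known. The promoters of the copies are 93.7% to 96.3% identical and hold none of the 3 motifs. Values of single copies are therefore uncertain, and the sum is given first.

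Summed over the copies, Dcpp stayed below A2ml1 and Ovgp1 in all 8 libraries with high Ovgp1, in CPM and per kilobase of transcript. In DE the sum stood at 3.78, 48.5, 0.228 and 13.2 CPM, and in PE at 9.13, 171, 34.0 and 20.6 CPM. In E it stood at 0, 0, 42.5 and 0 CPM, and in KO (anestrus) at 0, 0.350, 0.163 and 0.0918 CPM. PE lay above KO (anestrus) without overlap, a separation whose share over all genes was not counted. E replicate 3 was the single E library with any Dcpp count. Outside the stage experiment the highest sum was 4.49 CPM, in Fshb(+/-) replicate 3, and the other 2 Fshb(+/-) libraries had 0.122 and 0 CPM. Fshb(-/-) of experiment 1 had 0.122, 0.0736 and 0 CPM, against 0.0599, 0.0617 and 0.413 CPM in WT. In Fshb(-/-) HFSHB it stood at 0.0471, 0.315, 0.338 and 0 CPM, against 0, 0.0844, 0.0425 and 0 CPM in Fshb(-/-) of experiment 2. The 8 libraries of experiment 2 included 3 with more than 100 CPM of Ovgp1, yet none reached 1 CPM of Dcpp. Dcpp was at 0 in 9 of the 33 libraries, and 0 counts allowed up to 0.127 to 0.297 CPM depending on depth.

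Per kilobase of transcript, the scale on which genes can be compared, PE replicate 2 held 2033 CPM per kb of Ovgp1, 374 of A2ml1 and 255 of summed Dcpp. DE replicate 1 held 2692 CPM per kb of Ovgp1, 87.1 of A2ml1 and 5.60 of Dcpp. Ovgp1 was thus the most abundant of the genes in both libraries, and the distance to Dcpp was far wider in DE replicate 1.

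The ratio between the genes was not constant across the high libraries. Among the 8 libraries with the highest Ovgp1, Ovgp1 itself varied 2.37-fold, A2ml1 6.92-fold and summed Dcpp 45.2-fold. Per 1000 Ovgp1 counts, DE replicates 1, 2 and 4 held 0.536, 10.7 and 4.24 Dcpp counts, PE replicates 1 to 4 held 3.08, 32.1, 8.92 and 4.45, and E replicate 3 held 9.17. The exact 95% counting intervals of the extremes were 0.393 to 0.715 in DE replicate 1 and 30.8 to 33.5 in PE replicate 2, so this 59.9-fold spread is wider than counting error, and the DE and PE libraries overlapped in it. A2ml1 per 1000 Ovgp1 counts ran over 5.68-fold in the same libraries, from 58.04 in DE replicate 1 (interval 56.4 to 59.7) to 330 in PE replicate 2 (interval 325 to 335). Both ratios had their lowest value in DE replicate 1 and their highest in PE replicate 2.

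In experiment 2 the Dcpp ratio was lower than in the raised library of experiment 1. Fshb(+/-) replicate 3 held 4.94 Dcpp counts per 1000 Ovgp1 counts (interval 3.86 to 6.24). Fshb(-/-) HFSHB replicate 2 held 0.746 (interval 0.300 to 1.54) and Fshb(-/-) replicate 3 held 0.214 (interval 0.00543 to 1.20), from 7 and 1 Dcpp counts. Replicate 4 of that group had no Dcpp count beside 2208 Ovgp1 counts, which allows up to 1.67 per 1000. These 3 libraries were below Fshb(+/-) replicate 3 beyond counting error, although their A2ml1 ratios of 140, 147 and 27.2 per 1000 lay on both sides of its ratio of 73.7. DE replicate 1 of experiment 3, at 0.536 Dcpp counts per 1000, lay in the same low range. The experiments were prepared differently, so genotype, preparation and library cannot be told apart here.

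**Figure D2:**
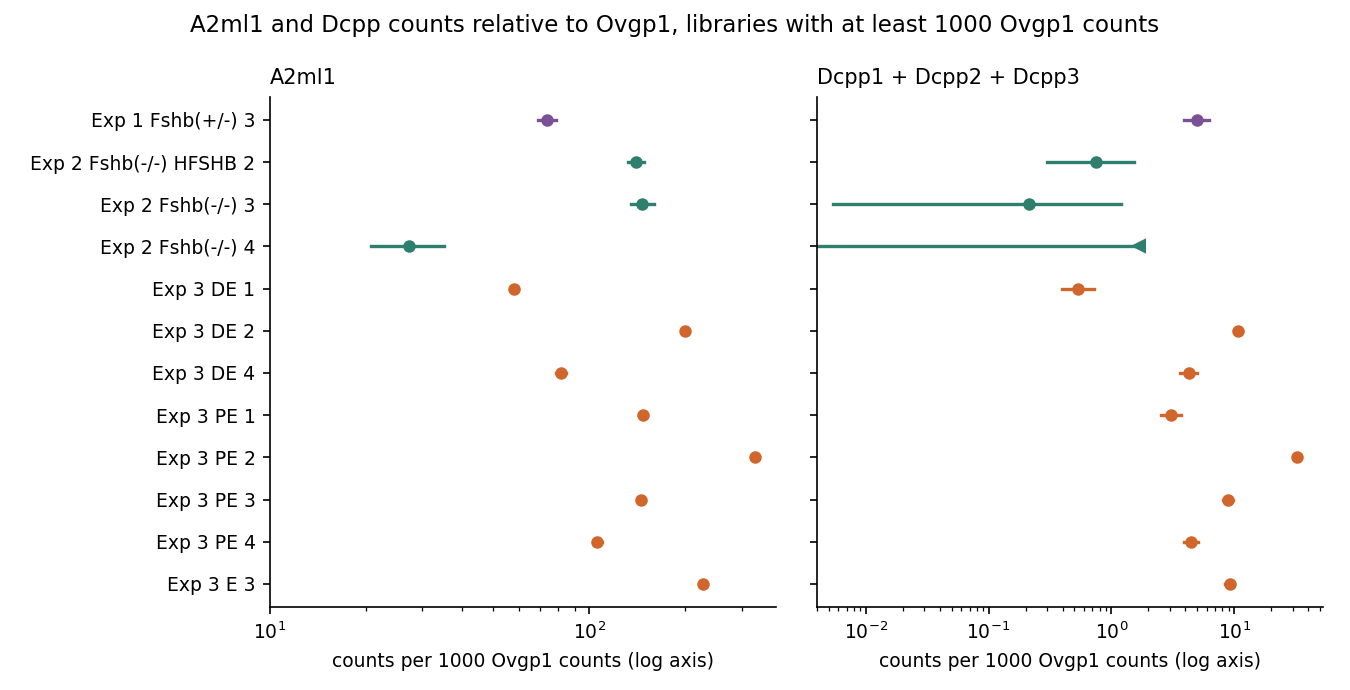
A2ml1 counts (left) and summed Dcpp counts (right) per 1000 Ovgp1 counts on log axes, for the 12 libraries with at least 1000 Ovgp1 counts; points are ratios, horizontal lines are exact 95% counting intervals and the arrowhead is the upper limit of a library with 0 Dcpp counts. The Dcpp ratio runs from 0.536 in DE replicate 1 to 32.1 in PE replicate 2 among the stage libraries.

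Dcpp3 took most of the Dcpp counts in 8 of the 9 libraries with at least 30 of them. Its share was 93.5%, 83.4% and 69.7% in DE replicates 1, 2 and 4 and 76.8%, 76.7%, 82.6% and 78.8% in PE replicates 1 to 4, and 84.5% in Fshb(+/-) replicate 3. E replicate 3 differed, with 31.4% of 528 counts in Dcpp1, 32.6% in Dcpp2 and 36.0% in Dcpp3. Its exact 95% interval for Dcpp3, 31.9% to 40.2%, lies below the lowest interval of the other libraries, 61.8% to 76.9% in DE replicate 4, though these intervals cover counting error and not the quantifier's division of shared reads. Dcpp2 in turn made up 32.6% there and at most 9.75% in the other 8. No other E library had a Dcpp count, so the share at this stage rests on 1 library, and stage and library cannot be told apart.

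**Figure D3:**
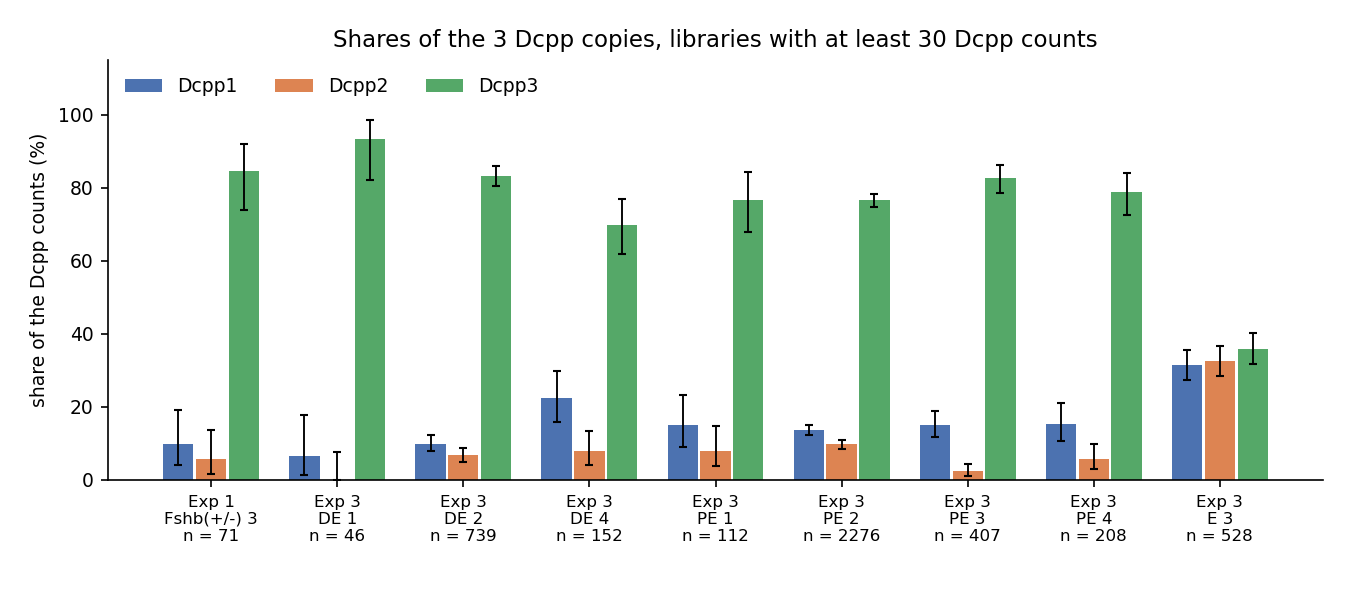
Share of the Dcpp counts assigned to Dcpp1, Dcpp2 and Dcpp3 (vertical axis, %) in the 9 libraries with at least 30 Dcpp counts, with exact 95% binomial intervals as error bars and the number of Dcpp counts as n. Dcpp3 holds 69.7% to 93.5% in 8 libraries and 36.0% in E replicate 3.

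Fitted ratios between groups repeat these levels. Between PE and KO (anestrus), Ovgp1 averaged 4142 ± 1016 CPM in PE and 19.7 ± 18.7 CPM in KO (anestrus) after TMM scaling of library sizes (SD, n = 4 each), a fitted log2 ratio of 7.71 with a standard error of 2.61. The fitted log2 ratios of A2ml1 and of summed Dcpp for the same groups were 8.78 and 8.44. This was the comparison in which the groups did not overlap for Ovgp1, A2ml1 and summed Dcpp alike. The share of all genes without overlap there was not counted, so how common such a separation is cannot be said. By another measure, an adjusted p of edgeR under 0.05, 33.8% of the 16944 genes tested were called there. For DE against KO (anestrus) the log2 ratios were 7.55, 7.75 and 6.62 in the same order of genes, with overlap through DE replicate 3. Between PE and DE, Ovgp1 averaged 4142 ± 1016 and 3696 ± 2937 CPM, a log2 ratio of 0.16, which was -0.26 without DE replicate 3, and summed Dcpp averaged 58.5 ± 75.9 CPM in PE and 16.6 ± 22.2 CPM in DE, so neither difference exceeded the spread. The comparisons with KO (anestrus) share its libraries.

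The comparisons with E turned on E replicate 3. With it, the fitted log2 ratio of Ovgp1 for E against KO (anestrus) was 5.84, and without it the ratio was -3.17. The sign of A2ml1, 7.13 with the library and -3.42 without it, and of summed Dcpp, 5.94 and -4.06, changed in the same way. For E against PE, Ovgp1 fell by 1.87 on the log2 scale with all libraries and by 10.93 without E replicate 3. In experiment 1 the Ovgp1 ratio was 5.37 for Fshb(+/-) against WT and 1.47 without Fshb(+/-) replicate 3, while the ratio for Fshb(-/-) against WT was -1.34, and -0.44 without WT replicate 3. In experiment 2 the ratio for Fshb(-/-) HFSHB against Fshb(-/-) was 0.48 and became -4.52 without HFSHB replicate 2. Summed Dcpp and its copies did not pass the filter on low counts in experiments 1 and 2, where no ratio was fitted for them, and all 5 genes passed it in experiment 3.

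Other genes of oviduct-type epithelium were counted from 3 lists of 61 genes in all, which leave out the 5 genes above. They cover secretory cells (16 genes), the epithelium of ducts (20) and motile cilia (25), and a gene was called where the Benjamini-Hochberg adjusted p of edgeR's quasi-likelihood test over all genes was under 0.05. All gene lists used here were chosen with earlier results of these data known, so their counts and p-values are a description. For fits with 1 library left out, the share of all genes called was counted only where that library stood apart. For PE against KO (anestrus), 40 of 58 tested genes rose, against 17.5% of all genes tested called higher, and 2 fell. These were 20 of 24 motile cilia genes, 15 of 20 duct epithelium genes and 5 of 14 secretory genes. The count held 19 to 40 calls when single libraries were left out, with 20, 25 and 19 calls without replicates 1, 2 and 3 of KO (anestrus). The median log2 ratio was 2.91 over the 58 genes, and 0.01 over all genes tested.

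Among the cilia genes, Foxj1, the regulator of motile cilia, rose by 5.52 on the log2 scale in PE (SE 1.62, edgeR adjusted p = 0.019), and the axonemal dynein Dnah5 rose by 6.02 (adjusted p = 0.020). Tubb4b, a tubulin that many cells use, had a log2 ratio of 0.38 (adjusted p = 0.11). Of the secretory genes, Ltf, the estrogen-responsive secreted protein lactoferrin, rose by 7.24 (SE 2.25, adjusted p = 0.025), while complement C3 had a ratio of 1.44 (adjusted p = 0.17) and the folate receptor Folr1 a ratio of 0.46 (adjusted p = 0.31). Of the duct genes, the keratins Krt8, Krt18 and Krt19 rose by 1.47, 2.62 and 2.81 and the adhesion protein Cdh1 by 2.80. The 2 genes that fell, named after their values were seen, were Sult1e1, an estrogen sulfotransferase, with a log2 ratio of -6.22, and Ccno, a cyclin of multiciliated cell differentiation that oocytes also express, with -1.58. The list's direction therefore held for most members and not for these.

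For DE against KO (anestrus), 25.1% of all genes tested were called, 13.5% of all as higher, and of the 58 list genes 32 rose and 2 fell. Without DE replicate 3 the count was 48, beside 33.5% of all genes, and without any other single library of these groups it ran from 4 to 21. For those other fits the share of all genes called was not counted. A fall in the list cannot be told apart there from a fall over all genes. Foxj1 rose by 4.87 on the log2 scale (edgeR adjusted p = 0.039) and Ltf by 7.26 (adjusted p = 0.032), while Krt8 had a ratio of 1.34 (adjusted p = 0.075), which was 1.70 without DE replicate 3 (adjusted p = 0.015). For E against KO (anestrus), 18.0% of all genes were called and 1 list gene of 58, Sult1e1, which fell by 5.94 on the log2 scale. This count was 5 without E replicate 3, 1 higher and 4 lower in E, beside 9.45% of all genes higher and 6.68% lower, and it was 2 without any other single E library. Without both E replicate 3 and DE replicate 3 it was 15, of which 14 were lower, beside 9.57% of all genes lower. The median log2 ratio of the list for E against KO (anestrus) was 1.29 with all libraries and -0.71 without E replicate 3, against 0.01 over all genes in both fits. For DE against KO (anestrus) it was 2.68 with all libraries, against 0.01 over all genes, and 3.14 without DE replicate 3, against 0.07 over all genes.

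Between stages, edgeR called 0 genes of 16944 in PE against DE (0.00%), in E against PE (0.00%) and in DE against E (0.00%). At an unadjusted p under 0.05 the list held 0, 14 and 4 genes in these 3 comparisons, beside 407, 3170 and 1796 of all genes, and DESeq2 likewise called 0 list genes. Without E replicate 3, 46 list genes were lower in E than in PE, beside 8.48% of all genes lower, and 46 were higher in DE than in E, beside 5.44% of all genes higher. Without both E replicate 3 and DE replicate 3 these counts were 51, beside 11.5% of all genes, and 52, beside 12.1%, while PE against DE still gave 0 calls over all genes. E replicate 3 and DE replicate 3 were left out because their levels of oviduct-type genes stood apart. Calls among such genes therefore follow from that choice and are a description, not a test of stage.

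In experiment 1, 7.87% of 17223 genes were called for Fshb(-/-) against WT, and of the 48 list genes tested 3 rose and 1 fell, Folr1 falling by 1.02 on the log2 scale (edgeR adjusted p = 0.014). The count was 2, 1 and 1 without replicates 1, 2 and 3 of Fshb(-/-). For Fshb(+/-) against WT, 0.0871% of all genes and 0 list genes were called by edgeR, and 4 list genes were called by DESeq2. At an unadjusted p of edgeR under 0.05 there were 17 of the 48 list genes, beside 1783 of all 17223 genes. For Fshb(-/-) against Fshb(+/-), 17.0% of all genes were called, 7.90% as lower, and of the list 1 rose and 5 fell, among them Ltf, with a log2 ratio of -6.27. Without Fshb(+/-) replicate 3 the Ltf ratio was -2.67 and no longer passed the threshold (edgeR adjusted p = 0.073). Without Fshb(+/-) replicate 3 that comparison gave 12 list calls, 10 of them higher in Fshb(-/-) beside 7.10% of all genes higher, and without Fshb(+/-) replicate 1 it gave 12, of which 10 were lower. Without replicates 1, 2 and 3 of Fshb(-/-) it gave 2, 3 and 3.

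In experiment 2, 31.9% of 16871 genes were called for Fshb(-/-) HFSHB against Fshb(-/-), 16.2% as lower, and of 50 list genes 1 rose and 16 fell. Duct epithelium genes made up 10 of those that fell, with Krt8, Krt18 and Krt19 at log2 ratios of -0.59, -1.14 and -1.20, and 1 motile cilia gene, Ccno, fell. Of 12 ovarian surface epithelium genes, a list that shares Krt19 and Cdh1 with the duct list, 8 fell and 2 rose. Their median log2 ratio was -0.92, and 15.8% of all genes were called higher. The fall was thus not particular to the oviduct lists. C3 fell by 2.78 on the log2 scale (SE 0.41, edgeR adjusted p = 0.0028) and Folr1 rose by 0.51. Foxj1, with a ratio of -0.58 (adjusted p = 0.85), and Ltf, with -0.44 (adjusted p = 0.85), did not pass the threshold, and without HFSHB replicate 2 the ratios were -6.68 (edgeR adjusted p = 0.087) and -3.36 (adjusted p = 0.10). The median log2 ratio was -0.78 over the 50 genes, and 0.00 over all genes tested. Without HFSHB replicate 2, 30 list genes were called, 29 of them lower, beside 15.9% of all genes lower. Without HFSHB replicate 3 or 4 the count was 11, and without Fshb(-/-) replicate 2 it was 10.

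**Figure D4:**
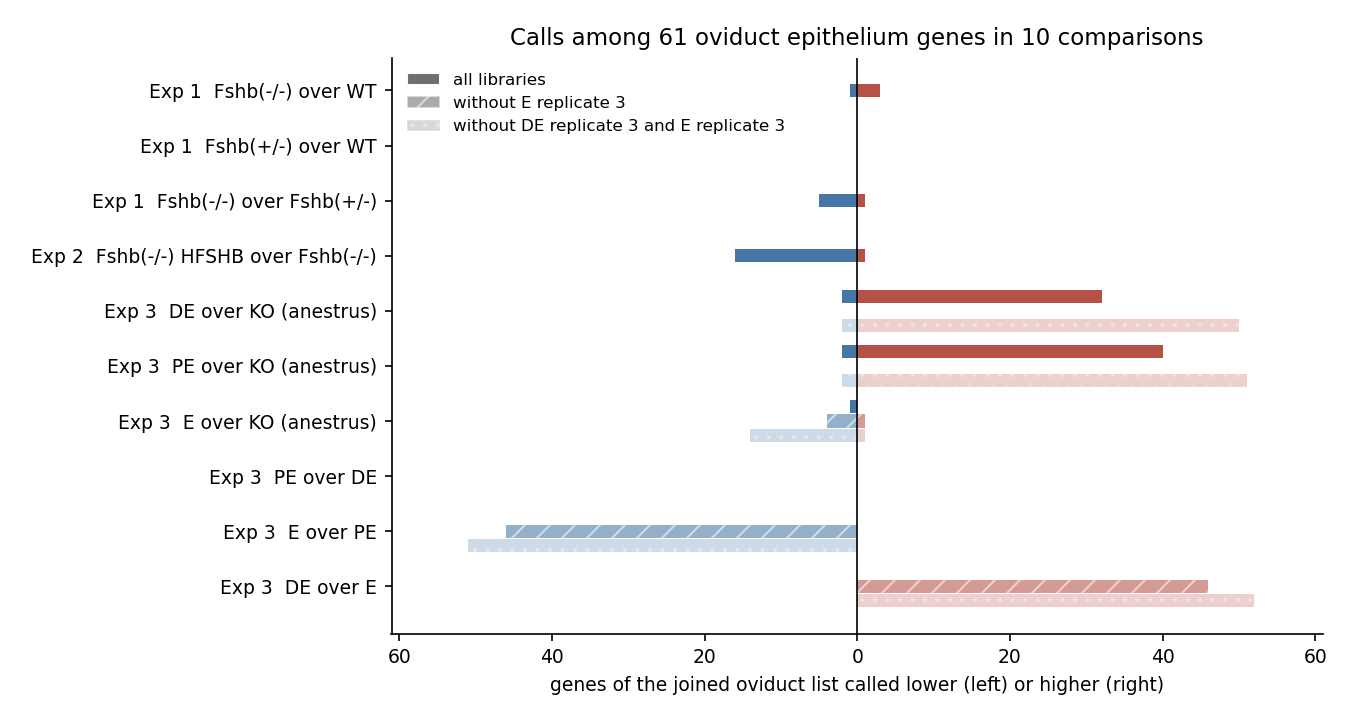
Genes of the 61-gene oviduct epithelium list called higher (right) or lower (left) in each of 10 comparisons, with the group named first set over the one named second; pale bars leave out E replicate 3 (drawn for comparisons with E) or both DE replicate 3 and E replicate 3. With all libraries 40 genes were higher in PE than in KO (anestrus) and 0 were called between stages; without the named libraries 46 to 52 were called in the comparisons of E with PE and of DE with E, and still 0 in PE against DE. The libraries left out were picked by their levels of oviduct-type genes, so the pale bars are a description.

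In the stage experiment the summed level of the motile cilia list was high in the libraries with high Ovgp1. It ran from 276 to 1232 CPM in DE, from 860 to 1211 in PE, from 230 to 898 in E and from 311 to 335 in KO (anestrus), and the low end of DE was DE replicate 3 and the high end of E was E replicate 3. The duct epithelium list ran from 167 to 1507 CPM in DE, from 939 to 1234 in PE, from 143 to 1324 in E and from 215 to 235 in KO (anestrus), in the same libraries. In Fshb(-/-) of experiment 1, where Ovgp1 was low, the cilia sum was 341 to 391 CPM. It was 271 CPM in Fshb(+/-) replicate 2, which had more Ovgp1, and 1299 CPM, the highest of all, in Fshb(+/-) replicate 3. Where the cilia sum was low, Tubb4b made up much of it, with 188 of 258 CPM in E replicate 1. Smooth muscle genes, which mark the muscular wall of ducts and vessels, ran from 2156 to 5844 CPM in DE, from 2975 to 4669 in PE, from 1374 to 3540 in E and from 1159 to 2366 in KO (anestrus), and 7 of 11 rose in PE against KO (anestrus) while 2 fell, beside 17.5% of all genes higher and 16.3% lower. Of the 61 oviduct list genes, 10 of 16 secretory, 18 of 20 duct and 19 of 25 cilia genes were at 0 in no library, Foxj1 and Epcam among them, and Pax8, a regulator of secretory cells, was at 0 in 2 libraries. The part of these other cells in the levels of Ovgp1, A2ml1 and Dcpp was not tested.

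Relative to Foxj1, Ovgp1 ranged widely within each experiment. The 8 high stage libraries held 41.1 to 86.8 CPM of Ovgp1 per CPM of Foxj1, while DE replicate 3 held 5, the other 3 E libraries 3.50 to 22.6 and the 4 KO (anestrus) libraries 1.38 to 14.1. Among the raised libraries of experiments 1 and 2, Fshb(+/-) replicate 3 held 6.03, Fshb(-/-) HFSHB replicate 2 held 11.5, and replicates 3 and 4 of Fshb(-/-) in experiment 2 held 4.15 and 15.7. Replicates 3 and 4 of Fshb(-/-) HFSHB held 37.0 and 40.8, at Foxj1 levels of 0.0964 and 0.0963 CPM, where a ratio rests on very few counts. The ratios of the other 3 E libraries also rest on few counts, at 0.0885, 0.188 and 0.368 CPM of Foxj1. So do those of DE replicate 3, at 0.608 CPM, and of KO (anestrus) replicates 1 and 3, at 0.973 and 0.570 CPM. Foxj1 itself stood at 151 CPM in Fshb(+/-) replicate 3, above the 102 CPM of DE replicate 1, so this library had more of the cilia regulator and less Ovgp1. These experiments have other protocol labels than the stage libraries, and genotype and preparation cannot be told apart.

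**Figure D5:**
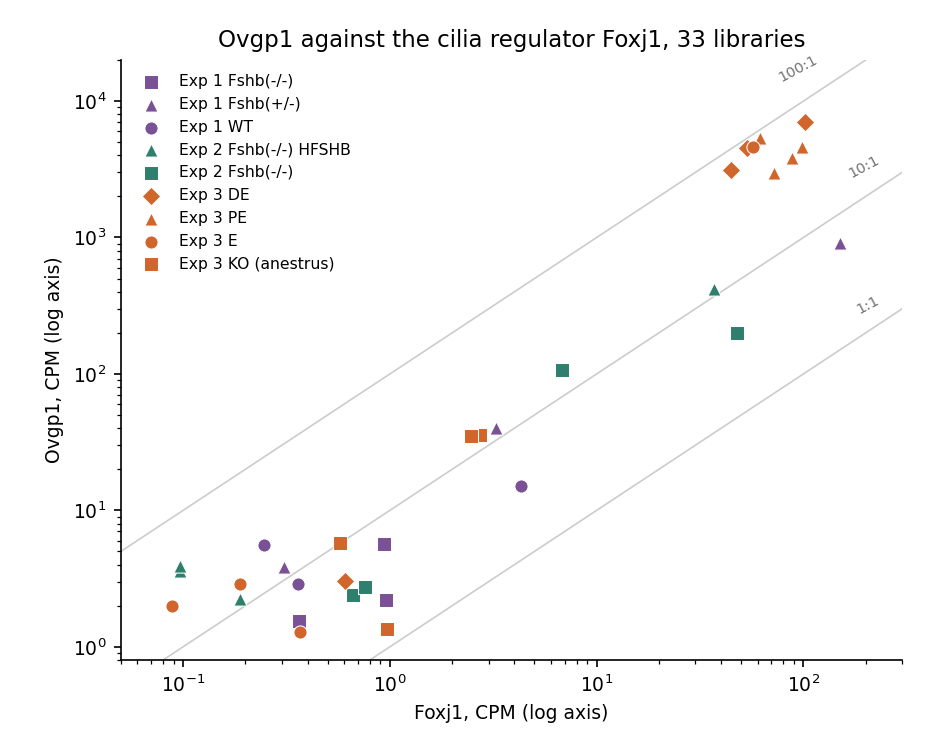
Ovgp1 level against Foxj1 level in CPM on log axes, 1 point per library, with colours for experiments, symbols for groups and grey lines at ratios of 1, 10 and 100. The 8 high stage libraries lie between ratios of 41.1 and 86.8 and the raised libraries of experiments 1 and 2 between 4.15 and 15.7.

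Neighbouring genes and families were examined for the same pattern. Pifo, a cilia gene next to Ovgp1 on chr3, had median levels of 10.2 CPM in DE, 15.5 in PE, 0 in E and 0.210 in KO (anestrus), and a highest level of 22.6 CPM in PE replicate 4. Wdr77, upstream of Ovgp1, ran from 65.7 to 153 CPM over all libraries, with the highest level in DE replicate 1. Its medians were 123 CPM in DE, 130 in PE, 85.3 in E and 86.3 in KO (anestrus). Of the chitinase-like genes nearby, Chia1, an acidic chitinase, rose in PE against KO (anestrus) by 4.43 on the log2 scale (edgeR adjusted p = 0.022) but reached at most 2.08 CPM, and Chil3 at most 1.77 CPM. Next to A2ml1, the alpha-2-macroglobulin family gene Pzp reached at most 1.35 CPM. Of 8 tested genes of that family 2 rose in PE against KO (anestrus), where 17.5% of all genes did, namely A2m with a log2 ratio of 1.71 and Hc, complement C5, with 4.34. The genes of the family with the highest mean CPM, C3, C4b, Mug2 and Mug1, were not called higher. In the Dcpp cluster the neighbouring serine protease genes Prss21, Prss32, Prss33 and Prss41 stayed at or under 0.402 CPM.

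Estrogen target genes were listed because Ovgp1 is counted among them in other mammals. In PE against KO (anestrus) 6 of 11 rose, beside 17.5% of all genes. Of the 4 with the highest mean CPM, Esr1, the estrogen receptor, rose with a log2 ratio of 1.95 (edgeR adjusted p = 0.0048). The others, C3, Greb1, with a ratio of -0.26, and Igf1, with -0.62, did not pass the threshold. Outside these 4, Pgr, the progesterone receptor, rose with a ratio of 6.09 (edgeR adjusted p = 0.0036), and Sult1e1 fell. The list shares C3, Ltf, Muc1 and Sult1e1 with the secretory list.

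Likeness to each gene was described by Pearson's r of log2(CPM + 1), after subtracting the mean of the experiment, over the 33 libraries. Ovgp1 and A2ml1 had r = 0.98, Ovgp1 and summed Dcpp 0.82 and A2ml1 and summed Dcpp 0.89. Within experiment 2, where Dcpp was close to 0, Ovgp1 and Dcpp had r = 0.22. The genes most like Ovgp1 were Plet1, Fndc7, Capsl, Fermt1, Pifo, Sntn, Acox2 and Dynlrb2, with r of 0.97 to 0.98. Sntn encodes a protein of ciliary tips and Dynlrb2 a dynein light chain. Those most like summed Dcpp were Alox12e, Them5, Entpd3, Agr2 and Serpina9, with r of 0.92 to 0.94. Within experiment 3 their r was 0.93 to 0.96, but within experiment 2 it was only 0.17 to 0.54. Within experiment 1 it was 0.05 for Them5 and 0.90 to 0.97 for the others. Agr2 encodes a protein disulfide isomerase of mucus-secreting cells. Those most like A2ml1 were Ugt1a1, whose counts may be shared with other Ugt1a transcripts, Acox2, Dhrs9, Pifo and Arhgef38, with r of 0.97 to 0.98. At r of at least 0.9 there were 321 genes for Ovgp1 and 340 for A2ml1 but 11 for Dcpp, of 13451 compared. These values share libraries and depth, and the libraries fall into a high and a low cluster.

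Plet1, an epithelial surface protein, was the most like Ovgp1. It reached 617 CPM in DE replicate 1 and 160 CPM in Fshb(+/-) replicate 3, against 4.79 CPM in DE replicate 3, and stood between 2.93 and 617 CPM over all libraries. Alox12e, a lipoxygenase, was the most like summed Dcpp and reached 86.1 CPM in PE replicate 2, the library with most Dcpp. Them5 and Entpd3 reached 5.03 CPM in PE replicate 2 and 28.4 CPM in E replicate 3. Them5 passed the minimum of 5 CPM only through PE replicate 2, the library with most Dcpp.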

How the data were processed

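Polyadenylated RNA of mouse ovary was measured in 33 libraries; 9 groups were taken from the titles and from the genotype and stage labels. The authors deposited estimated counts per gene; Salmon, DESeq2 and build GRCm38 are named per the submitters' processing notes, and versions were not given in the sources used here. Since the quantifier divides reads shared by near-identical or overlapping genes, single Dcpp copies are uncertain. Symbols were matched to GENCODE M21 (54094 of 54347 identifiers); every sample column was mapped.

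Counts were rounded. CPM per library use total counts; group means use TMM. The 3 experiments were fitted separately in edgeR 4.0.16 (R 4.3.3): filterByExpr, glmQLFit with robust estimation, glmQLFTest, Benjamini-Hochberg adjustment over all genes tested, threshold 0.05; the summed Dcpp copies replaced the 3 copies in a second table. The fit was tested on simulated data with the same spread for every gene and no library that stood apart. That test therefore does not cover groups that hold such a library. Libraries of a group differed by more than sampling noise (chi-square over degrees of freedom, 5.34 to 67.7), so none was treated as a library deposited again; whether they are separate animals is not stated. Depth was 10.1 M to 23.7 M counts; intervals are exact 95% intervals and cover counting error only.

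The members and the gene lists were chosen with earlier results of these data known. Named genes are the 5 members, up to 4 genes of each list with the highest mean CPM, and the 8, 5 and 5 genes most like Ovgp1, summed Dcpp and A2ml1 by r, among genes with at least 5 CPM in 1 library and no predicted name; exceptions are stated. Alternatives were DESeq2 1.42.0, median-of-ratios factors, no filter, only the groups compared, a replicate block, each replicate left out, and DE and E replicates 3 left out together; for likeness, a pseudocount of 0.1 in place of 1 and Spearman's rho. Promoter sequences are from RefSeq (GRCm38.p6), coding sequences from GENCODE M21; protein sequences were not used here.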

Additional observations from a re-analysis of the deposited data

Results flagged for a closer look

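In groups of 4 libraries, a library was marked where its gap to the nearest other, on the log2(CPM + 1) scale, took a share of the group's range above Dixon's 95% critical value. This gave 7 marks in 18 combinations of gene and group. Chance marks about 1 group in 20, but the genes move together and were chosen with their levels known, so the marks are a description: 3 of them are E replicate 3 and 2 are Fshb(-/-) HFSHB replicate 2. Ovgp1 stood at 422 CPM in Fshb(-/-) HFSHB replicate 2, above 2.24 to 3.93 CPM in the other 3. A2ml1 stood at 58.97 CPM in the same library, above 0.0471 to 0.482 CPM. In DE replicate 3, Ovgp1 stood at 3.04 CPM, below 3105 to 7042 CPM in the other DE libraries. In E replicate 3, Ovgp1 stood at 4630 CPM, above 1.29 to 2.89 CPM in the other E libraries. Summed Dcpp stood at 42.5 CPM there, above 0 in the other 3, and A2ml1 at 1053 CPM, above 0.0885 to 0.251 CPM. In PE replicate 2, A2ml1 stood at 1755 CPM, above 438 to 554 CPM. Groups of 3 libraries were not examined, so Fshb(+/-) replicate 3 carries no mark.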

How the results depend on the processing

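Single genes of low level rest on few counts, and the quantifier's division of shared reads was not varied. Fitted log2 ratios of Ovgp1, A2ml1 and summed Dcpp moved by less than the spread between replicates with DESeq2, median-of-ratios factors, no filter, only the groups compared and the replicate block, and in 176 of 196 fits that left out 1 library. That spread was wide: for Ovgp1 it was 0.893 log2 units in Fshb(-/-) against WT and 5.20 in DE against E. Staying within it is therefore a weak criterion. For libraries of the same replicate number, deviations from each gene's group mean were correlated. Their r ran from -0.0813 to 0.0974 in experiment 1, from -0.153 to 0.141 in experiment 2 and from -0.754 to 0.233 in experiment 3. It was above 0.1 in 0 of 9, 1 of 4 and 6 of 24 pairs. Libraries of different number were not compared, so whether the number pairs libraries was not settled. With the replicate block, 3 ratios changed sign within their spread: A2ml1 to -1.46 and Ovgp1 to -2.28 for Fshb(-/-) HFSHB against Fshb(-/-), and Ovgp1 to -0.36 for PE against DE. The block gave 18 list calls in place of 34 for DE against KO (anestrus).

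Without E replicate 3 and DE replicate 3 together, Ovgp1, summed Dcpp and A2ml1 had log2 ratios of 11.18, 11.12 and 11.62 for DE against E, -3.16, -4.05 and -3.42 for E against KO (anestrus), and -10.93, -12.53 and -12.24 for E against PE. The list calls were then 52 for DE against E, 51 for E against PE, 52 for DE against KO (anestrus) and 15 for E against KO (anestrus). Without the filter on low counts, the list calls were 7 for DE and 22 for PE, each against KO (anestrus), and 11 for Fshb(-/-) HFSHB against Fshb(-/-). With only the groups compared in the fit they were 3 for Fshb(-/-) against Fshb(+/-), 11 for Fshb(-/-) against WT and 3 for E against KO (anestrus). DESeq2 gave 11 for Fshb(-/-) against Fshb(+/-), 4 for Fshb(+/-) against WT and 8 for E against KO (anestrus). The share of all genes called was not counted with the replicate block, without the filter, with only the groups compared or with DESeq2. The cause of these shifts was not tested.

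When 1 library at a time was left out, the list calls ran from 2 to 12 for Fshb(-/-) against Fshb(+/-), from 1 to 3 for Fshb(-/-) against WT, from 10 to 30 for Fshb(-/-) HFSHB against Fshb(-/-), from 0 to 46 for DE against E and likewise for E against PE, and from 4 to 48 for DE, 19 to 40 for PE and 1 to 5 for E, each against KO (anestrus). They stayed at 0 for Fshb(+/-) against WT and for PE against DE. The share of all genes called was counted only for the fits without a library that stood apart, so most of these ranges have no background beside them. The log2 ratio of Ovgp1 then ran from -7.46 to -2.81 for Fshb(-/-) against Fshb(+/-), from -2.10 to -0.44 for Fshb(-/-) against WT, from 1.47 to 6.26 for Fshb(+/-) against WT, from -4.52 to 1.54 for Fshb(-/-) HFSHB against Fshb(-/-), from 1.18 to 10.77 for DE against E, from -3.17 to 6.32 for E against KO (anestrus) and from -10.93 to -1.46 for E against PE. That of A2ml1 ran from -7.42 to -2.89, from -3.86 to 2.53, from -0.31 to 9.29, from -5.19 to 3.87, from -0.21 to 11.21, from -3.42 to 7.84 and from -12.24 to -0.92 in the same order of comparisons. That of summed Dcpp ran from -0.85 to 10.71 for DE against E, from -4.06 to 6.79 for E against KO (anestrus), from -12.53 to -1.01 for E against PE and from 6.95 to 9.29 for PE against KO (anestrus).

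Of the 8 genes most like Ovgp1, 2 were also named with a pseudocount of 0.1 and 0 with Spearman's rho; of the 5 for summed Dcpp these were 2 and 1, and of the 5 for A2ml1 they were 2 and 2. Without E replicate 3 and DE replicate 3, 7, 4 and 4 were shared.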
